A study of Homo sapiens with 4 samples.

Results

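Replication-dependent histone genes encode the histones that package newly copied DNA. They were taken by symbol as the protein-coding rows H1-1 to H1-5 and those beginning with H2AC, H2BC, H3C or H4C and a number, which gave 69 of the 60649 gene rows in the count table. There were 5 genes for linker histone H1 and, for the histones of the nucleosome core, 17 for H2A, 19 for H2B, 13 for H3 and 15 for H4. RNA was sequenced from FaDu cells, an established human line from a squamous cell carcinoma of the hypopharynx, grown in MEM alpha Glutamax with 10% fetal bovine serum. One group carried a construct that overexpresses TINCR joined to HA and FLAG tags (TINCR-HA-FLAG), and the other an empty vector. The replicates are described as technical, so p-values measure only the spread between 2 libraries per group and not that between cultures or clones. The labels used here do not say how the constructs were delivered or which promoter drives them.

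These genes are transcribed in step with DNA replication, and NPAT at histone locus bodies drives them as a group. Their mRNAs usually have no introns and no poly(A) tail, and end just past a stem-loop that is bound by SLBP and processed with the U7 snRNP. The same genes can also give polyadenylated mRNAs, which are known in differentiated and in tumour cells. Bulk libraries cannot tell a smaller share of cells in S phase from less histone mRNA per cell.

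Of the 69 genes, 54 lay in the cluster on chromosome 6 (chr6:25726063-27893891, GRCh38.p14), 11 on chromosome 1 at 1q21 (chr1:149782689-149887965) and 2 at 1q42 (chr1:228457364-228458558). H4C16 on chromosome 12 and H2BC12L on chromosome 21 carry member symbols but lie outside these clusters. A stem-loop of the form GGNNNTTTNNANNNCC with a paired stem was found in annotated transcripts of 29 genes, always 23 to 68 bases past the stop codon. Only 33 genes had a transcript annotated at least 50 bases past the stop codon, and 28 of these held the stem-loop within 100 bases. A match occurred in 0.138% of other protein-coding genes. The 29 genes used 4 sequences, taken from GENCODE v29 transcripts (GRCh38) because they are the feature that sets these mRNAs apart, with the paired stem in capitals and the loop in lower case.
H2BC21, chr1:149886188-149886203, minus strand: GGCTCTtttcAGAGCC
H2BC4, chr6:26123472-26123487, minus strand: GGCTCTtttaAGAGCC
H4C2, chr6:26026901-26026916, minus strand: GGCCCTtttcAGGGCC
H4C9, chr6:27139654-27139669, plus strand: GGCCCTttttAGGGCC
The first was shared by 17 genes for H2A, H2B and H3, and the second by 4 genes for H2B and H3. The third and the fourth were held by 5 and 3 genes, and all 8 encode H4. No H1 gene had a match in its annotated transcripts. These end at the stop codon or at most 57 bases past it, so the search had little or no sequence to cover. It cannot tell whether H1 mRNAs hold the stem-loop.

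Promoters differed by class. RefSeq promoters (GRCh38.p14) were matched for 63 of the 69 genes, and those of H4C1, H2AC12, H3C11, H4C3, H2BC12L and H3C12 were not matched. The 250 bases before the start were searched on both strands for TATAAA (the TATA box), CCAAT (the CCAAT box, bound by NF-Y), ATTTGCAT (the octamer, bound by POU2F1), CGGAC (the core of the H4 element bound by HINFP), and TTTCGCGC or TTTGGCGC (E2F sites). CCAAT was present in all 5 H1, 16 H2A, 18 H2B and 11 H3 promoters but in 3 of 13 H4 promoters, against 32.0% of all 35116 promoters. The octamer was present in 11 of 16 H2A and 14 of 18 H2B promoters, in 1 of 11 H3 promoters, and in 1.63% of all promoters. CGGAC was present in 12 of 13 H4 promoters, in 4 of the 50 others, and in 24.2% of all promoters. TATAAA was found in 42 of 63 promoters, against 10.7% of all, and an E2F site in 11 of 63, against 0.968%. The matches describe letters only. In 12 pairs of H2A and H2B genes on opposite strands the starts lie 194 to 248 bases apart, and H3C4 starts 223 bases from H2BC7. The searched stretches of such partners are largely the same sequence, so a match can count for both genes. The H2A and H2B counts are therefore not independent. The 140 bases before the start are shown for the gene with the most CPM in each of 4 classes, with every match in capitals. No H2A promoter is shown, since H2BC21 shares its upstream stretch with H2AC20. In H2BC21 the CGGAC and CCAAT matches overlap by a base.
H1-5, chr6:27867589-27867728, minus strand: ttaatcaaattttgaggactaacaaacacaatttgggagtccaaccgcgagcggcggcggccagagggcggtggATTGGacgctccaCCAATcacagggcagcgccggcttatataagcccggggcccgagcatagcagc
H2BC21, chr1:149886683-149886822, minus strand: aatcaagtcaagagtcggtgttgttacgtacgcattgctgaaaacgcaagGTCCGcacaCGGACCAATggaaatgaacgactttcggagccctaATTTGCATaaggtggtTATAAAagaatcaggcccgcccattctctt
H3C2, chr6:26032100-26032239, minus strand: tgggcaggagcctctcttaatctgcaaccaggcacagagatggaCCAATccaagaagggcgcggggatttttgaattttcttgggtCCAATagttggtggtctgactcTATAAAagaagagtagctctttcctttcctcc
H4C4, chr6:26189113-26189252, minus strand: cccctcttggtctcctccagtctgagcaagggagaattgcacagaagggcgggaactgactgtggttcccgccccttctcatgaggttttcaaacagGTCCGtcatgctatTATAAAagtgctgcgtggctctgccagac
H1-5 has CCAAT in both orientations. H2BC21 has the octamer and the TATA box, H3C2 a pair of CCAAT boxes and the TATA box, and H4C4 the reverse complement of CGGAC next to the TATA box.

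**Figure D1:**
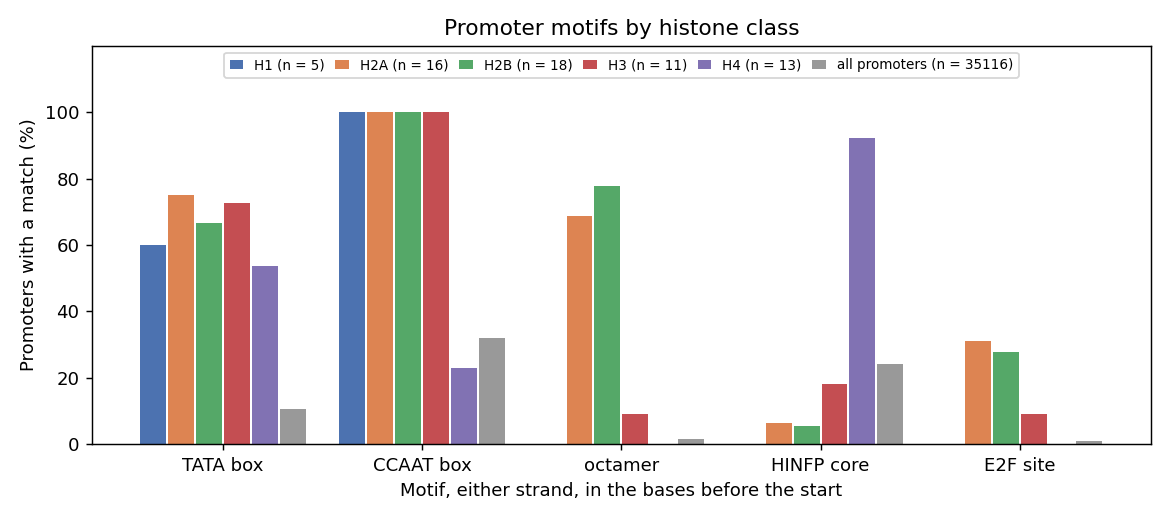
Share of promoters (percent, y axis) with a match to each motif (x axis) for the 5 histone classes and for all promoters (grey). All H1, H2A, H2B and H3 promoters held CCAAT, while 12 of 13 H4 promoters held CGGAC.

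The libraries held 18151424 and 22331602 counts with TINCR-HA-FLAG and 17069533 and 17315648 with the empty vector, at which 3 counts correspond to 0.135 to 0.177 CPM (counts per 1000000). CPM were scaled by TMM. This floor covers counting error only, since reads are not independent molecules, whereas the intervals of fold changes given here come from edgeR and include the spread between libraries. TINCR itself had 104 and 132 CPM in TINCR-HA-FLAG libraries, against 3.96 and 3.77 CPM in empty vector libraries. This is a log2 fold change of 4.93 ± 0.17 (SE), with an adjusted p of 7.2e-07 by edgeR's quasi-likelihood test with Benjamini-Hochberg adjustment. The squamous keratin KRT5 was abundant, at 3304 to 4750 CPM over the 4 libraries, and all 9 squamous and epithelial markers examined passed the filter. Among leukocyte markers PTPRC and CD3E were under the filter, while CD14 had 5.68 to 9.04 CPM and LYZ 3.30 to 4.53 CPM. Of 3 endothelial markers PECAM1 and KDR were under the filter, while VWF had 9.08 to 13.2 CPM. All 5 fibroblast markers passed the filter, the highest being COL1A1 at 24.0 to 33.6 CPM. Mitochondrial genes took 11.4% and 8.66% of counts with TINCR-HA-FLAG, against 9.43% and 7.58% with the empty vector, so replicate 2 was lower in both groups.

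FaDu cells expressed most of the histone genes. After the filter on low counts 61 of the 69 genes were tested, with 55 to 10776 counts per library. The other 8 were H2AC1, H2AC7, H2AC15, H2AC17, H2BC1, H3C4, H4C6 and H4C7, which had at most 8 counts in a library. Of these, H2AC15, H3C4 and H4C7 had none in any library. H2AC7 lies within the span of H3C4 on the same strand, so a counting step may assign its reads to neither gene. Per kilobase of coding length, the mean over 4 libraries ranged from 11.1 CPM for H2AC19 to 1059 CPM for H3C2 among the tested genes, with a median of 292. Class medians on this scale were 361 for H1, 160.4 for H2A, 292 for H2B, 508 for H3 and 145 for H4. After H3C2 the highest levels on this scale were those of H2BC21 (938), H2BC4 (876) and H4C4 (799.5). The 8 genes whose coding sequence is identical to that of another member, H2AC19 among them, lay at the low end of this scale. How reads shared between such copies were counted is not named, so their levels and the class medians are uncertain. Counts per gene may also include reads outside the coding sequence, and neither the levels nor the class medians are corrected for that. The annotated transcript of H2BC21 has 2194 bases, 378 of them coding, and that of H3C2 has 411, 408 of them coding. The 10 genes with the most CPM held 39.8% of all histone CPM.

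**Figure D2:**
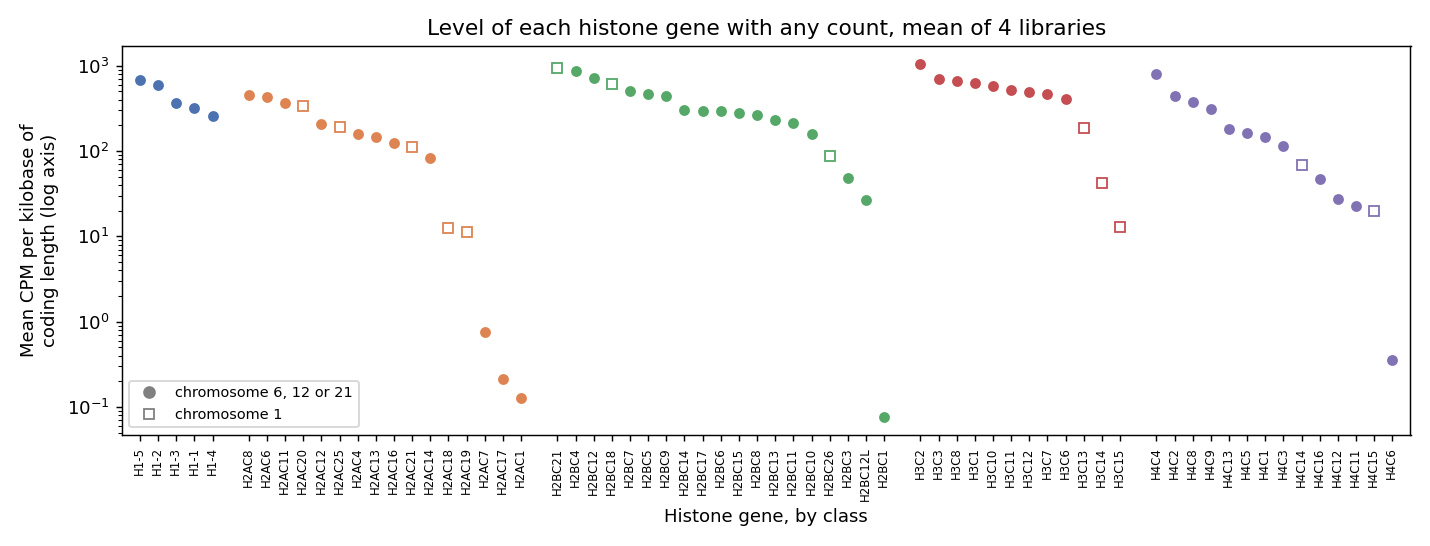
Mean CPM per kilobase of coding length over 4 libraries (log axis) for each histone gene with any count, sorted within its class; open squares are genes on chromosome 1. H3C2 was highest at 1059, and H2AC7, H2AC17, H2AC1, H2BC1 and H4C6 lay under 1.

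Genes for H2A and H2B are often arranged head to head. Among the histone genes 12 such pairs had starts 194 to 248 bases apart (median 238), and in 8 of them both genes were tested. H2B was the higher of the pair in 5 of these 8. In H2AC1 and H2BC1 neither gene was tested. In a further 3 pairs the H2B gene was expressed while its H2A partner was under the filter. H2BC7 averaged 189.5 CPM over the 4 libraries beside 0.294 CPM for H2AC7. H2BC15 had 137 CPM beside 0 for H2AC15, and H2BC17 had 110.4 CPM beside 0.0833 for H2AC17. The value of H2AC7 is uncertain, since the gene lies within the span of H3C4 on the same strand and the counting step is not named. Within the 8 pairs the log2 fold changes of both genes had a median absolute difference of 0.08 and a largest of 0.23, in H2AC14 and H2BC14. Genes outside a pair were not compared in this way. All tested H2A genes lay between -0.29 and 0.08 and all tested H2B genes between -0.24 and -0.02.

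The main comparison asked whether overexpressed TINCR goes with a different level of histone mRNA. No histone gene rose or fell past the threshold in the main fit, which had no term for the replicate number. The summed histone level was 6988 and 8868 CPM in TINCR-HA-FLAG libraries, against 7790.0 and 9447 CPM in empty vector libraries. The groups overlapped, and replicate 2 was the higher library in both. The log2 difference of the sums was -0.12, smaller than the log2 gap between replicates, which was 0.34 with TINCR-HA-FLAG and 0.28 with the empty vector. An exact permutation test over the 4 libraries gave p = 0.667, where 0.333 is the smallest p that 2 against 2 allows. Without TINCR-HA-FLAG replicate 1 the log2 difference turned to 0.05, and without empty vector replicate 2 to 0.01. Without TINCR-HA-FLAG replicate 2 it was -0.30, and without empty vector replicate 1 -0.26. Leaving out 1 library makes replicate numbers unequal between the groups, so the gap between replicates enters these values.

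The 5 classes gave values close to each other. H1 genes, whose products bind linker DNA, summed to 1281 and 1500.1 CPM in TINCR-HA-FLAG libraries, against 1411 and 1645 CPM in empty vector libraries. H2B genes, the largest class by level, summed to 2142 and 2846 CPM with TINCR-HA-FLAG, against 2415 and 2989 CPM with the empty vector. The log2 difference was -0.14 for H1, -0.14 for H2A, -0.12 for H2B, -0.11 for H3 and -0.12 for H4, each with overlapping groups and an exact permutation p of 0.667. Without TINCR-HA-FLAG replicate 1 the H2A, H2B, H3 and H4 values turned above 0 (0.02 to 0.08) and H1 was -0.02. Without empty vector replicate 2 the H2B, H3 and H4 values turned above 0 (0.02 to 0.03), H1 was -0.03 and H2A -0.01. As for the sum of all histone genes, the gap between replicates enters these values. H4 held 10.2% ± 0.06 of histone CPM in TINCR-HA-FLAG libraries and 10.2% ± 0.01 in empty vector libraries (SD, n = 2 each). H2B held 31.4% ± 1.03 with TINCR-HA-FLAG and 31.3% ± 0.45 with the empty vector. Among all 10 ratios between classes, exact permutation p ranged from 0.667 to 1. By cluster, the log2 difference was -0.13 on chromosome 6, -0.09 at 1q21 and -0.19 at 1q42, where only 2 genes were summed (each p = 0.667, exact permutation test). Both clusters on chromosome 1 together gave -0.10.

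**Figure D3:**
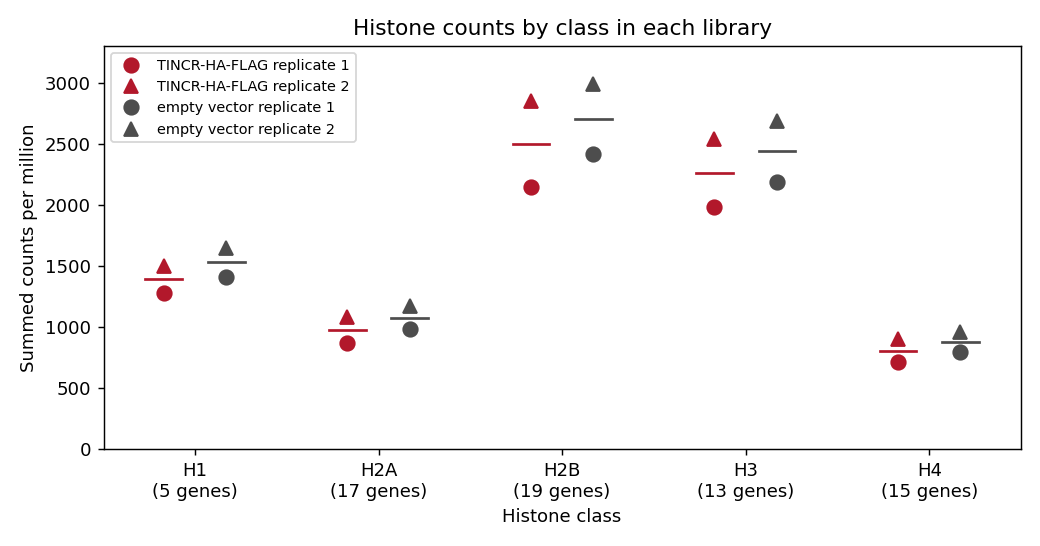
Summed CPM (y axis) of the genes of each histone class in every library, TINCR-HA-FLAG in red and empty vector in grey; circles are replicate 1, triangles replicate 2 and bars group means. In all 5 classes the groups overlap and replicate 2 lies above replicate 1.

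Gene by gene, 0 of the 61 tested histone genes were called by edgeR at an adjusted p under 0.05 and 0 by DESeq2. Over the whole table edgeR called 0.549% of 18771 tested genes, and DESeq2 1.08% of the 14109 genes to which it gave an adjusted p. With the replicate number as a block in edgeR, 19 of the 61 histone genes were called, all lower. Over all 18771 tested genes that fit called 1316 lower, and 14.03% in either direction. The replicate numbers are not shown to pair the libraries. In the main fit, without a block, 3 histone genes, or 4.92%, had an unadjusted p under 0.05, against 10.2% of all tested genes. The log2 fold change was below 0 for 55 of 61 histone genes, against 49.3% of all tested genes, with a median of -0.12 beside 0.004 over all. Values ran from -0.44 for H4C13 to 0.48 for H4C15, and the 95% interval included 0 for 58 of 61. The 2 libraries of TINCR-HA-FLAG lay below both of the empty vector in 6 genes (9.84%), against 17.8% of all tested genes, and above both in 0, against 21.7%. Leaving out TINCR-HA-FLAG replicate 1 turned the median to 0.04 and leaving out empty vector replicate 2 to 0.02. A fit without 1 library leaves replicate numbers unequal between the groups. Replicate 2 was above replicate 1 in both groups for all 61 genes, so this gap enters the difference in such fits. They cannot separate the direction of a group difference from it. Without TINCR-HA-FLAG replicate 2, 4 genes were called lower by edgeR (H4C13, H3C13, H2BC26 and H2BC17), with adjusted p from 3.8e-04 to 0.030, against 0.788% of all genes tested in that fit called lower. In this fit the lone library is taken to spread as the other group does.

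**Figure D4:**
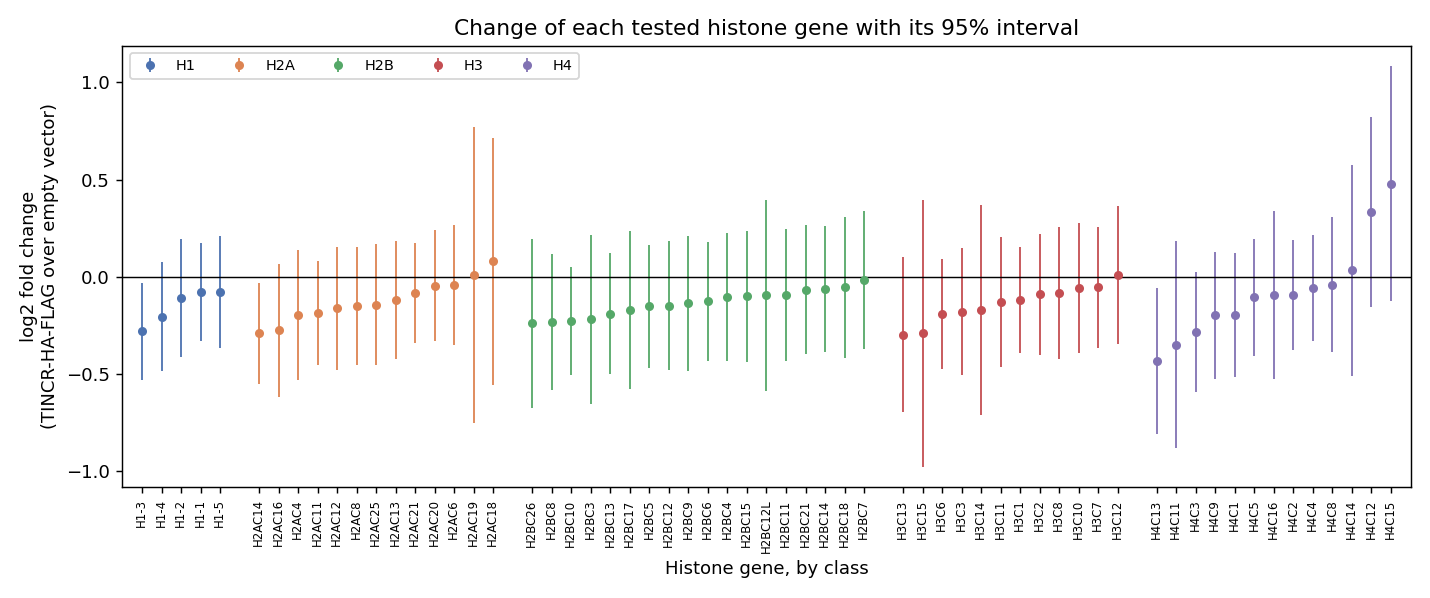
Log2 fold change (TINCR-HA-FLAG over empty vector, y axis) with its 95% interval from edgeR for each of the 61 tested histone genes, by class. In all, 55 values lie below 0 and 58 intervals include 0.

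Most histone genes differed more within groups than between them. Replicate 2 was above replicate 1 in both groups for all 61 tested histone genes, against 33.4% of all tested genes. The median log2 gap from replicate 1 to replicate 2 was 0.38 with TINCR-HA-FLAG and 0.29 with the empty vector over the histone genes, beside -0.01 and -0.002 over all tested genes. In 53 of the 61 genes the difference between groups was smaller than both gaps of that gene. By cluster, the summed level had a log2 gap of 0.33 with TINCR-HA-FLAG and 0.27 with the empty vector on chromosome 6. It was 0.43 with TINCR-HA-FLAG and 0.30 with the empty vector at 1q21, and 0.44 with TINCR-HA-FLAG and 0.31 with the empty vector at 1q42. These gaps were not compared by a test. The mitochondrial share moved the other way between replicates, and its part in the result was not tested.

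**Figure D5:**
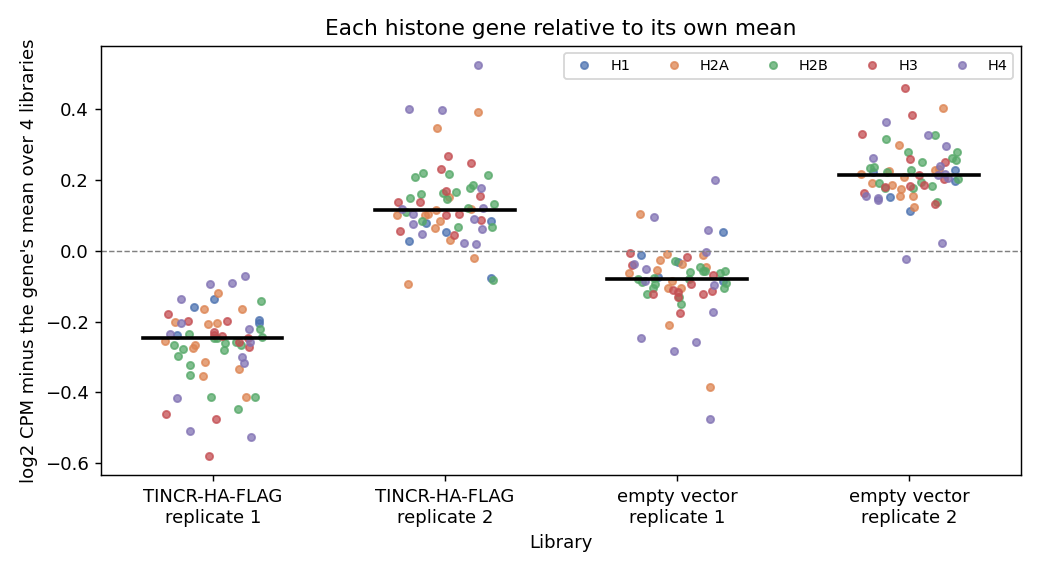
Log2 CPM of each of the 61 tested histone genes minus its own mean over 4 libraries (y axis), by library; colours are classes and black bars medians. The points of replicate 2 lie mostly above 0 and those of replicate 1 mostly below it in both groups.

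Among H1 genes, H1-3 (linker histone H1.3) had 207 and 226 CPM in TINCR-HA-FLAG libraries, against 247 and 279 CPM in empty vector libraries. The groups did not overlap. Its log2 fold change was -0.28 ± 0.11 (SE), with an edgeR unadjusted p of 0.031 and an adjusted p of 0.42. H1-5, the most abundant H1 gene in CPM, had 411 and 485 CPM with TINCR-HA-FLAG, against 436 and 510.3 CPM with the empty vector. H1-2 had 332 and 403 CPM with TINCR-HA-FLAG, against 358 and 435 CPM with the empty vector. Both overlapped between groups.

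Of the genes for H2A, the partner of H2B in the core, H2AC8 had 148 and 191 CPM in TINCR-HA-FLAG libraries, against 175 and 202 CPM in empty vector libraries. H2AC6 had 146 and 187 CPM with TINCR-HA-FLAG, against 156 and 187 CPM with the empty vector. Groups overlapped for both of these genes. H2AC14 was lower in both TINCR-HA-FLAG libraries, at 27.2 and 29.3 CPM, against 33.6 and 35.7 CPM with the empty vector. Its log2 fold change of -0.29 ± 0.12 (SE) had an adjusted p of 0.42 in edgeR. H2AC18 had 3.90 and 6.16 CPM with TINCR-HA-FLAG, against 4.19 and 5.47 CPM with the empty vector.

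H2BC21, the most abundant H2B gene and one known for polyadenylated transcripts, had 299 and 393 CPM in TINCR-HA-FLAG libraries, against 328 and 398 CPM in empty vector libraries. H2BC4 had 277 and 361 CPM with TINCR-HA-FLAG, against 309 and 378 CPM with the empty vector. Both overlapped, with log2 fold changes of -0.07 for H2BC21 and -0.11 for H2BC4. H2BC26, the lowest H2B gene by fold change, had 23.7 and 36.5 CPM with TINCR-HA-FLAG, against 31.0 and 40.5 CPM with the empty vector, and H2BC7, the highest, had 158 and 218 CPM with TINCR-HA-FLAG, against 169 and 212 CPM with the empty vector. Their log2 fold changes were -0.24 ± 0.20 for H2BC26 and -0.02 ± 0.16 for H2BC7 (SE).

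Among the H3 genes, whose tails carry many chromatin marks, H3C2 had 375 and 462 CPM in TINCR-HA-FLAG libraries, against 403 and 489 CPM in empty vector libraries. H3C3 had 234 and 301 CPM with TINCR-HA-FLAG, against 270.2 and 337 CPM with the empty vector. For both genes TINCR-HA-FLAG replicate 1 was the lowest library and empty vector replicate 2 the highest, and the groups overlapped. H3C13 at 1q21 had 53.4 and 80.9 CPM with TINCR-HA-FLAG, against 73.2 and 92.5 CPM with the empty vector, a log2 fold change of -0.30 ± 0.18 (SE) with an adjusted p of 0.65 in edgeR. H3C12 had 167 and 238 CPM with TINCR-HA-FLAG, against 184 and 219 CPM with the empty vector, and its log2 fold change of 0.01 was -0.01 with RLE scaling.

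H4C13 had the most negative value of all tested histone genes. It had 38.8 and 57.0 CPM in TINCR-HA-FLAG libraries, against 59.0 and 71.0 CPM in empty vector libraries. The groups did not overlap, and the log2 fold change of -0.44 ± 0.17 (SE) had an unadjusted p of 0.027 and an adjusted p of 0.41 in edgeR. H4C4, the H4 gene with the most CPM, had 224 and 259.7 CPM with TINCR-HA-FLAG, against 232 and 272 CPM with the empty vector. H4C2 had 118 and 146 CPM with TINCR-HA-FLAG, against 131 and 151 CPM with the empty vector. H4C15, at the other end, had only 5.63 and 8.50 CPM with TINCR-HA-FLAG, against 4.25 and 6.004 CPM with the empty vector. Its groups overlapped, and its log2 fold change of 0.48 ± 0.27 (SE) had an adjusted p of 0.62 in edgeR.

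Near-identical copies limit what single values mean. The pairs H2AC18 and H2AC19, H3C14 and H3C15, H4C11 and H4C12, and H4C14 and H4C15 have identical coding sequences, so how their reads were divided depends on a counting step that the sources do not name. These 8 genes included 5 of the 6 with a log2 fold change above 0. As sums, the log2 difference was 0.005 for H2AC18 and H2AC19, -0.24 for H3C14 and H3C15, -0.02 for H4C11 and H4C12, and 0.09 for H4C14 and H4C15, with exact permutation p of 0.667 for the H3 pair and 1 for the others. Of the 53 tested genes with a coding sequence of their own, 52 had a log2 fold change below 0. Over all members, 33 shared no 50-base coding window with another member and 12 shared more than 50% of them.

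Annotated transcripts of 21 genes run at least 100 bases past the stem-loop, as a polyadenylated form would. Their median log2 fold change was -0.10, and that of the other 40 tested genes was -0.15, with 19 of 21 and 36 of 40 below 0. The other genes are not a group shown to lack a longer form. Many have transcripts annotated only to the stop codon, and some run past it, by as much as 1908 bases, without a stem-loop match. Counts per gene do not separate the forms that end at the stem-loop from the longer ones.

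No gene on the list of those that make or process histone mRNA was called. Of 28 genes for histone mRNA transcription and processing, all tested, 0 were called, 15 lay above 0 and 13 below it, and the median log2 fold change was 0.02. CPSF2, a subunit of the cleavage complex, had 469.8 and 488 CPM in TINCR-HA-FLAG libraries, against 450.4 and 471 CPM in empty vector libraries, with overlapping groups. SLBP, chosen after its values were seen for its role at the stem-loop, had 62.6 and 63.0 CPM with TINCR-HA-FLAG, against 70.1 and 79.8 CPM with the empty vector, an uncalled log2 fold change of -0.25 ± 0.11 (SE, adjusted p = 0.45 in edgeR). SRRT, which links the cap to histone mRNA processing, had 180.5 and 186 CPM with TINCR-HA-FLAG, against 203 and 205 CPM with the empty vector, and groups did not overlap (log2 fold change -0.15, not called).

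Of 23 histone chaperones and genes that acetylate new histones, 0 were called and 16 lay below 0, with a median of -0.11. NAP1L1, a chaperone of H2A and H2B, had 469 and 473 CPM in TINCR-HA-FLAG libraries, against 457 and 478 CPM in empty vector libraries. SUPT16H, a subunit of the chaperone FACT, had 353 and 377 CPM with TINCR-HA-FLAG, against 379 and 395 CPM with the empty vector, a log2 fold change of -0.08 that was not called. Of the 16 rows for replacement histones, which are made outside S phase as well, 12 were tested, 6 on each side of 0 and 0 called, with a median of -0.02. H2AX, whose phosphorylation marks DNA breaks, had 274 and 363 CPM with TINCR-HA-FLAG, against 397 and 494 CPM with the empty vector. Its groups did not overlap and its log2 fold change of -0.48 ± 0.16 (SE) had an adjusted p of 0.30 in edgeR; without TINCR-HA-FLAG replicate 2 it was called, at an adjusted p of 0.0096. H3-3B, one of the genes for H3.3, had 309 and 347 CPM with TINCR-HA-FLAG, against 337 and 351 CPM with the empty vector, with overlapping groups.

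Of 32 other S phase genes, 0 were called and 23 lay below 0, with a median of -0.09. Their summed level was 3964 and 4563 CPM in TINCR-HA-FLAG libraries, against 4341 and 4587 CPM in empty vector libraries, so groups overlapped (log2 difference -0.07, exact permutation p = 0.667). In 12 of the 32 genes (37.5%) both TINCR-HA-FLAG libraries lay below both of the empty vector, against 17.8% of all tested genes. In 3 (9.38%) they lay above both, against 21.7%. MCM4, of the replicative helicase, had 682 and 815 CPM with TINCR-HA-FLAG, against 720.5 and 784 CPM with the empty vector. MCM7, of the same complex, had 314 and 383 CPM with TINCR-HA-FLAG, against 359 and 388 CPM with the empty vector. The sum of these genes was higher in replicate 2 in both groups, as the histone sum was, and its part in the histone values was not tested.

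Since canonical histone mRNAs lack a poly(A) tail, 24 other RNAs without one were examined beside them. Of these 9 were tested and 12 had 0 counts in all 4 libraries. Of the 9 tested, 8 lay below 0, with a median log2 fold change of -0.19, and 1 was called. Their summed level was 15411 and 16687 CPM in TINCR-HA-FLAG libraries, against 16957 and 20180.3 CPM in empty vector libraries. The groups did not overlap (log2 difference -0.21, exact permutation p = 0.333, the smallest possible), most of the sum was RN7SL1, and its part in the histone values was not tested. RN7SL1, an RNA of the signal recognition particle, had 14787 and 15967 CPM in TINCR-HA-FLAG libraries, against 16074 and 19060.1 CPM in empty vector libraries (log2 fold change -0.19 ± 0.20, SE, not called). Its near-identical copy RN7SL3 had 274 and 289 CPM with TINCR-HA-FLAG, against 533 and 626 CPM with the empty vector, and fell by 1.04 on the log2 scale (SE 0.12, adjusted p = 0.0047 in edgeR). The copies can share reads, so the value of RN7SL3 alone is uncertain. RN7SL3 was the only gene called in these 5 lists, which hold no replication-dependent histone genes.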

How the data were processed

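Per the labels' protocols, total RNA was extracted with an RNeasy Mini kit and libraries were made with a NEBNext Ultra RNA kit. The authors deposited raw counts, whole numbers for each Ensembl gene and library. The build GRCh38 and the tools DESeq2 1.32.0, STAR 2.7.9a and bcl2fastq 2.20.0.422 come from the submitters' processing notes. Not given in the sources used here are the counting step, strand setting, annotation release and any poly(A) selection or rRNA removal. The 12 other library columns of the table were not used.

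Groups came from the sample titles. Genes were filtered with filterByExpr (default settings), scaled by TMM and tested with edgeR 4.0.16 (robust quasi-likelihood, group only) in R 4.3.3 over all 18771 genes that passed, with Benjamini-Hochberg adjustment. Sums over genes were tested by a two-sided exact permutation test. The fits were tested on simulated data. CPM are counts per 1000000 of the TMM-scaled library size, and coding lengths came from GENCODE v29. Symbols matched 60509 of 60649 rows, by Ensembl identifier and, for H2AC18 and H2AC19, by older names.

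Alternatives were DESeq2 1.42.0, RLE size factors, library totals, no filter, the replicate number as a block, leaving out each library, and, for sums, leaving out the gene with the most counts or the genes under the filter. Named genes were TINCR, in each class the 2 genes with the highest CPM and those with the highest and lowest log2 fold change, called genes, and of each other list its called genes and the 2 with the highest CPM. H2AC19, H2BC14, H2BC15, H2BC17, H3C14, H3C15, H4C11, H4C12, H4C14, SLBP, the cell type markers and the genes under the filter were named after their values were seen. The members and lists were chosen with earlier results of these data known.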

Additional observations from a re-analysis of the deposited data

How the results depend on the processing

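Under DESeq2, RLE size factors, library totals and no filter, 0 histone genes were called, as in the main setting, and their median log2 fold change stayed between -0.15 and -0.10. Genes called over the whole table numbered 103, and 53 without the filter. With a library left out they numbered 124 to 386, histone genes called 0 to 4 and replacement histones called 0 to 1, the highest each time without TINCR-HA-FLAG replicate 2; called histone genes are named in the report.

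The replicate numbers are only shared numbers of technical replicates, and with 2 pairs no more can be said, although deviations of same-numbered libraries correlated at r = 0.37 over 18771 genes (genes are not independent replicates) and at 0.37 without the histone genes. With the replicate block 2633 genes were called (14.03% of those tested, 1316 of them lower), 19 histone genes (all lower), 3 replacement histones, 5 processing genes, 6 chaperones, 6 S phase genes and 3 RNAs without a poly(A) tail.

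Single genes near 0 changed sign. H3C12 had -0.012 under DESeq2, -0.0097 with RLE and -0.0046 with the block. NAP1L1 had -0.011 under DESeq2 and -0.0072 with RLE. With library totals H2BC7 had 0.0013 and MCM4 0.012. With a library left out, log2 fold changes ran from -0.23 to 0.044 for H1-5, -0.29 to 0.043 for H1-2, -0.36 to 0.026 for H2AC8, -0.24 to 0.13 for H2AC6, -0.31 to 0.36 for H2AC18, -0.28 to 0.12 for H2BC21, -0.31 to 0.076 for H2BC4, -0.60 to 0.036 for H2BC26, -0.27 to 0.20 for H2BC7, -0.27 to 0.060 for H3C2, -0.27 to 0.24 for H3C12, -0.21 to 0.066 for H4C4, -0.26 to 0.056 for H4C2, -0.15 to 0.12 for MCM4, -0.25 to 0.042 for MCM7, -0.16 to 0.019 for H3-3B, -0.060 to 0.049 for NAP1L1 and -0.017 to 0.094 for CPSF2. The cause was not tested. The 95% intervals of single histone genes reached from -0.98 to 1.09 on the log2 scale.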
